A study of Mus musculus with 2 samples.

Results

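The LIF and JAK-STAT3 signalling genes of mouse embryonic stem (ES) cells are described here as 10 named genes of the 21937 in the deposited table: the ligand gene Lif, the receptor genes Lifr and Il6st, the kinase genes Jak1, Jak2 and Tyk2, the transcription factor gene Stat3, the inhibitor genes Socs1 and Socs3, and Ptpn11. They were chosen by name and all 10 had reads. Messenger RNA was sequenced from wild-type ES cells of mixed 129Sv-C57Bl/6 strain, grown without feeder cells and given either 500 nM ICRF-193 for 16 h or the solvent DMSO for the same 16 h. ICRF-193 inhibits topoisomerase II, the enzyme that passes a DNA duplex through another, without leaving it trapped on cut DNA, so the comparison asks how its catalytic activity bears on transcription. Each of the 2 groups held 3 libraries. The table gives a mean per group in normalised reads (reads scaled by the size factor of their library), and the digits of these means allowed the reads of each library to be worked back. In each group the library of largest size factor is here called A, the next B and the last C, with no link to a replicate number, and values per library stand in that order. A single library is written with its group, as ICRF-193-A or DMSO-A. Nothing in the labels ties the replicates to cultures of their own, and p-values thus cover the spread among these libraries alone, which may be technical.

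Leukaemia inhibitory factor (LIF) is a cytokine of the IL-6 family that keeps mouse ES cells undifferentiated in culture. It binds its receptor LIFR, which pairs with the shared subunit gp130, the product of Il6st; Janus kinases held on both chains phosphorylate the receptors, STAT3 docks there, is phosphorylated, and enters the nucleus as a dimer to activate genes. STAT3 induces Socs3, whose protein blocks the kinases on gp130, while the phosphatase SHP2, the product of Ptpn11, links the same receptor to the ERK cascade. Cultures of feeder-free mouse ES cells are commonly given LIF protein; whether these were, and how much, is not given in the sources used here.

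After ICRF-193 the ligand transcript rose and the transcripts of its own receptor and of the feedback inhibitor fell. In the authors' deposited table Lif was 2.33-fold higher, Lifr was at 0.581 and Socs3 at 0.577 of the DMSO level. The other 7 genes did not pass the test, the transcript of STAT3 itself among them, at 0.897 of its DMSO level. At an adjusted p under 0.05 the deposited DESeq test thus called 1 gene higher and 2 lower, of 10. Over the 18759 genes with reads the same test called 5.97% higher and 1.26% lower, 7.23% in all. The median log2 fold change in the authors' deposited table was -0.05 over the 10 genes and 0.01 over all genes with reads.

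The promoters of the 3 genes that passed are shown because these are the windows in which a binding site for the pathway's own factor could be looked for. They span 250 bases before to 50 bases after the transcript start in RefSeq, build GRCm38.p6, and each is read on the strand of its gene: chr11:117969317-117969616 (minus strand) for Socs3, chr15:7129322-7129621 (plus strand) for Lifr and chr11:4257318-4257617 (plus strand) for Lif. Capitals mark every match to the STAT motif TTCNNNGAA, to the GC box GGGCGG or its reverse CCGCCC, and to the AP-1 motif TGANTCA.
Socs3: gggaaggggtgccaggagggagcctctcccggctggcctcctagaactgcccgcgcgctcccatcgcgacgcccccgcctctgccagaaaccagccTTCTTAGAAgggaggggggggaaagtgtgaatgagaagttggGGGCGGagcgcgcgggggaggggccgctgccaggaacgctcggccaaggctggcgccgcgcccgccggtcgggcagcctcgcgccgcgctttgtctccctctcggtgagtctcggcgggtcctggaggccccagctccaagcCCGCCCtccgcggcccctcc
Lifr: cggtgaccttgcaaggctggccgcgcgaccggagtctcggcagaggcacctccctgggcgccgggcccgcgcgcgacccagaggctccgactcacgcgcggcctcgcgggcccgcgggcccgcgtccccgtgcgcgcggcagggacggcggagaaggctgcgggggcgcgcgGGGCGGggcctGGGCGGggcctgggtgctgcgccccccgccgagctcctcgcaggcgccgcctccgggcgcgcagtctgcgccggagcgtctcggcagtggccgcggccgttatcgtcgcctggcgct
Lif: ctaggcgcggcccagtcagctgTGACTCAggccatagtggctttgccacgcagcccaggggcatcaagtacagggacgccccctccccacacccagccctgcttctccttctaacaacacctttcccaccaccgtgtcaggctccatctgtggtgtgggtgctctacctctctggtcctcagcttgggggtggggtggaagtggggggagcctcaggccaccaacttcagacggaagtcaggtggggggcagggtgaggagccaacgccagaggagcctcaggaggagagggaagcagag
The Socs3 window held 1 match to the STAT motif, ttcttagaa, which began 154 bases before the start, and it was the only STAT motif match in the 11 windows that RefSeq gives for the 10 genes. Of all 32851 promoter windows of the same length, 8.30% held this motif. The Lifr window shown held GC boxes 78 and 67 bases before the start. GC boxes were present in 9 of the 11 windows, against 35.7% of all windows, and in a window of 9 of the 10 genes. Lif was the exception, and its window held a match to the AP-1 motif, tgactca, 228 bases before the start, a motif found in 7.81% of all windows. CCAAT boxes were in 6 of the 11 windows, against 37.4% of all windows, and TATAA in 1, the second window of Lifr, against 24.9%. GC content was 73.3% for Socs3, 81.3% for the Lifr window shown and 63.7% for Lif, against a median of 52.7% over all windows. Each of the 11 windows lay above that median, from 53.3% to 81.3%. The motif shares were not compared with windows of like GC content. All motifs were searched on both strands, and those other than the STAT motif were added later.

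Recovered depth was 29.5 M to 34.2 M reads per library in ICRF-193 and 33.5 M to 47.5 M in DMSO, and the 10 genes had between 119 and 9672 reads in any library. Libraries A of both groups stood apart: the 7 fibroblast markers summed to 19685, 3031 and 2391 normalised reads in ICRF-193, and to 17262, 1743 and 1709 in DMSO. The 8 markers of primitive and visceral endoderm also summed highest in libraries A, at 3805, 1432 and 1780 in ICRF-193 and 3712, 861 and 1390 in DMSO. ES cell markers were abundant, the 7 of 8 with values per library summing to 64628 to 71499 in ICRF-193 libraries and 100505 to 108321 in DMSO libraries. The 5 trophectoderm markers summed to 4001 to 4935 in ICRF-193 libraries and 2281 to 3617 in DMSO libraries, and the 4 neural markers to 8246 to 10462 in ICRF-193 libraries and 7094 to 8912 in DMSO libraries. None of these markers was at 0, and of the 32 only Zfp42 and Pax6 passed the deposited test, both lower. The part of these shifts in the results below was not tested. For the 10 genes, each change is also given in libraries A alone and in B and C alone. That split does not set apart the differences between the groups in any of these sums. The ES cell sum was lower in ICRF-193 in both kinds of library. The fibroblast, endoderm, trophectoderm and neural sums were higher in ICRF-193 in both kinds of library. In bulk RNA, fewer cells of a type and less RNA per cell cannot be told apart.

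The ligand gene came out higher in each ICRF-193 library than in any DMSO library. Lif was at 1036, 784 and 644 normalised reads in ICRF-193, against 505, 295 and 258 in DMSO. Its means were 821 ± 199 in ICRF-193 and 353 ± 133 in DMSO (SD, n = 3 each). Libraries A were the highest of their groups, and the groups did not overlap. The authors' deposited table gives a log2 fold change of 1.22 (adjusted p = 0.0142). The ratio was 2.05 between libraries A alone, and 1.37 on the log2 scale between the means of B and C. On the recovered reads limma-voom gave 1.24 ± 0.29 (SE, adjusted p = 0.0366). With a term that sets libraries A apart from the others (the split term) limma-voom gave 1.22 ± 0.11 (SE, adjusted p = 6.22e-06). In the fit without that term, leaving out any of ICRF-193-A, ICRF-193-B, ICRF-193-C, DMSO-B or DMSO-C ended the limma-voom call, with an adjusted p of up to 0.140 and a log2 fold change of 1.05 to 1.40. Without DMSO-A it was 1.55 (limma-voom, adjusted p = 0.0129).

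**Figure D1:**
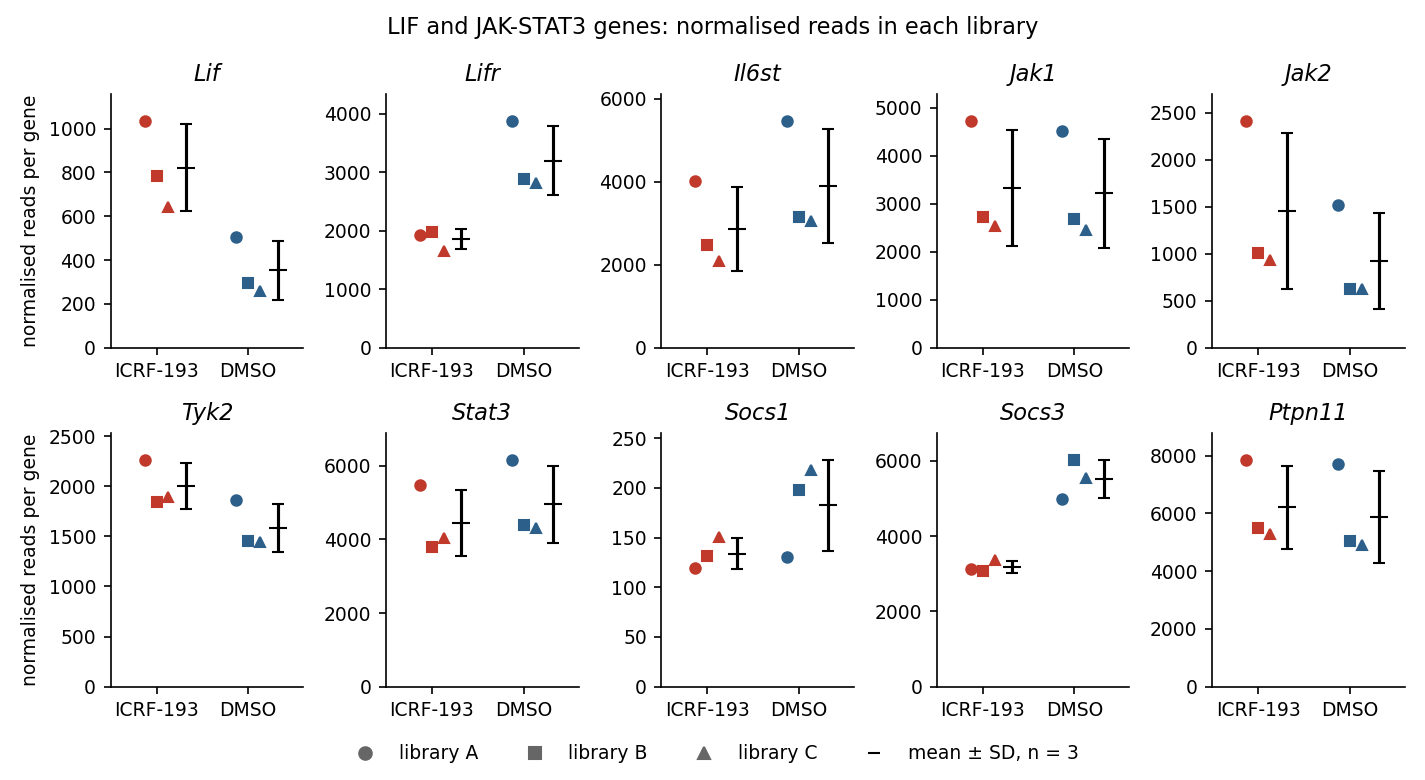
Normalised reads (y axis, from 0, a scale per gene) of the 10 genes in the 3 ICRF-193 libraries (red, left) and the 3 DMSO libraries (blue, right), with the group mean ± SD in black. Lif, Lifr and Socs3 are the panels in which the groups do not overlap. The circles of libraries A lie above the squares and triangles in both groups for Lif, Il6st, Jak1, Jak2, Tyk2, Stat3 and Ptpn11.

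Of the receptor genes, Lifr fell and Il6st did not pass the deposited test. Lifr, which encodes the chain that binds LIF, was at 1929, 1983 and 1662 normalised reads in ICRF-193, against 3882, 2890 and 2824 in DMSO. The highest ICRF-193 library stayed below the lowest DMSO library. Means were 1858 ± 172 in ICRF-193 and 3199 ± 593 in DMSO (SD, n = 3 each), and the authors' deposited table gives a log2 fold change of -0.78 (adjusted p = 0.0184). Lifr was at 0.497 of its DMSO level between libraries A, a log2 ratio of -1.01, and at -0.65 between the means of B and C. Whether the change differed between libraries A and the rest was tested with an interaction term in limma-voom, and did not pass (adjusted p = 0.593, unadjusted p = 0.0303), with a single library A in each group. The limma-voom call on the recovered reads (-0.78 ± 0.16 SE, adjusted p = 0.0234) was kept without either library A and ended without any of the other 4 libraries, with an adjusted p of up to 0.0946.

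Il6st, the gene of gp130, the chain shared by most receptors of the IL-6 family, was at 4017, 2471 and 2094 normalised reads in ICRF-193, against 5476, 3152 and 3051 in DMSO. The groups overlapped, with ICRF-193-A above DMSO-B and DMSO-C. The authors' deposited table has it at a log2 fold change of -0.44 (adjusted p = 0.69). Within libraries A the ratio was 0.734, a log2 value of -0.45, and between the means of B and C the log2 value was -0.44. With the split term, limma-voom called Il6st lower at -0.45 ± 0.06 (SE, adjusted p = 1.44e-04).

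Without the split term limma-voom called 1 of the 10 genes higher and 2 lower, where it called 9.77% of all 14967 genes tested higher and 5.95% lower, 15.7% in all. The split term brought this to 3 higher and 5 lower, while the same fit called 27.1% of all genes higher and 32.6% lower, 59.7% in all. With total read scaling in place of size factors, the fit with the split term called 5 of the 10 higher and 3 lower, where 36.4% of all genes were higher and 19.5% lower, 55.9% in all. That scaling moved the median log2 fold change of all genes to 0.09, against -0.04. Leaving out both libraries A, limma-voom called 3 higher and 4 lower, where 25.1% of all genes were higher and 28.8% lower, 53.9% in all. Groups that did not overlap were found in 3 of the 10 genes, with ICRF-193 above DMSO in 1 and below it in 2. Over all genes 18.7% had ICRF-193 above DMSO and 18.8% below it, 37.4% in all.

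Of the kinases, Jak2 had the largest difference and the widest spread. JAK2 is the Janus kinase used by many hormone and cytokine receptors. Jak2 was at 2416, 1013 and 933 normalised reads in ICRF-193, against 1516, 623 and 626 in DMSO. Library A was 2.48 times the mean of B and C in ICRF-193 and 2.43 times in DMSO, ratios above those of 98.2% and 97.4% of the 11808 genes with a mean of at least 100 normalised reads. The authors' deposited table gives Jak2 a log2 fold change of 0.66 (adjusted p = 0.809). The difference itself was alike in both kinds of library, with a log2 ratio of 0.67 between libraries A and 0.64 between the means of B and C. In limma-voom its standard error was 0.49 without the split term and 0.06 with it, and the adjusted p was 0.421 and 1.19e-05.

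Tyk2, a Janus kinase known best from interferon and IL-12 signalling, was at 2266, 1847 and 1894 normalised reads in ICRF-193, against 1860, 1456 and 1441 in DMSO. The groups overlapped only in that DMSO-A lay between ICRF-193-B and ICRF-193-C. Its deposited log2 fold change in the authors' table was 0.34 (adjusted p = 0.596), and 0.34 ± 0.06 (SE, adjusted p = 4.22e-04) with the split term in limma-voom. Jak1, the kinase that gp130 signalling mainly needs, was at 4734, 2720 and 2543 normalised reads in ICRF-193, against 4517, 2680 and 2455 in DMSO. The groups lay over each other, with a log2 fold change of 0.05 in the authors' deposited table (adjusted p = 1) and of 0.05 ± 0.06 (SE, adjusted p = 0.477) with the split term in limma-voom. With total read scaling as well, limma-voom called Jak1 higher (0.18, adjusted p = 0.0156). Between libraries A the log2 ratio was 0.28 for Tyk2 and 0.07 for Jak1, and between the means of B and C it was 0.37 for Tyk2 and 0.04 for Jak1. Jak1 shares 4 exon bases with Raver2 on the opposite strand.

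**Figure D2:**
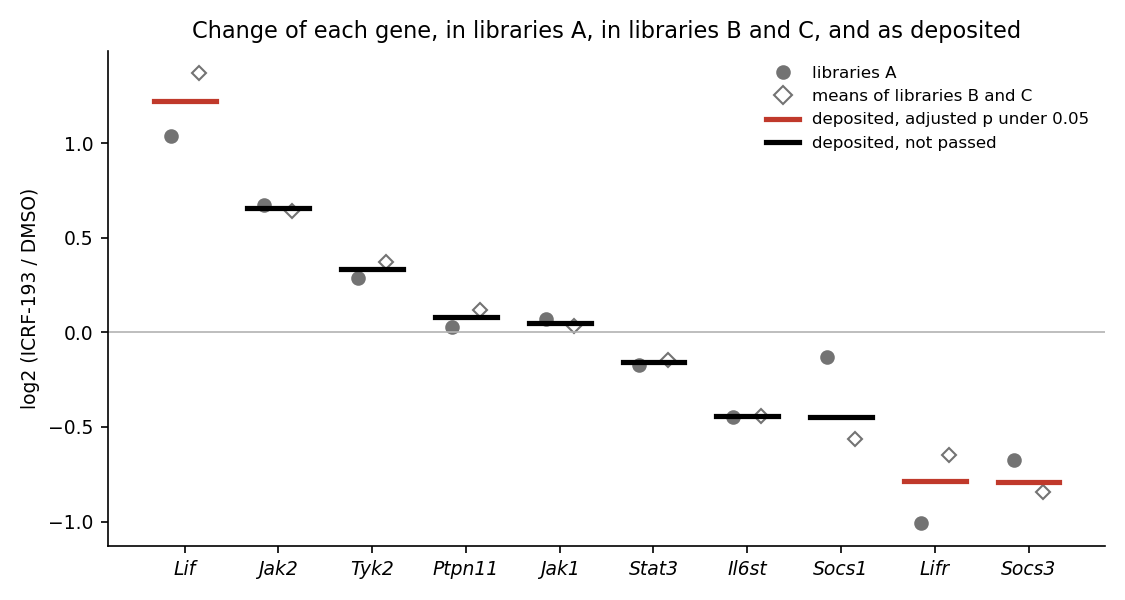
Log2 ratio of ICRF-193 to DMSO (y axis) for each of the 10 genes, between libraries A (circles), between the means of libraries B and C (open diamonds), and in the deposited table (bars; red where the adjusted p was under 0.05). Lif lies highest, between 1.04 and 1.37, and Lifr and Socs3 lowest; for no gene do the circle and the diamond lie on opposite sides of 0.

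Stat3, the transcription factor at the end of this route, was at 5480, 3805 and 4051 normalised reads in ICRF-193, against 6166, 4395 and 4311 in DMSO. The groups overlapped through the high libraries A. The authors' deposited table gives -0.16 on the log2 scale (adjusted p = 0.864), and limma-voom with the split term -0.16 ± 0.05 (SE, adjusted p = 0.0173). That call ended in limma-voom without both libraries A (-0.15, adjusted p = 0.0681) and when the split term went with total read scaling (-0.023, adjusted p = 0.712). Its log2 ratio was -0.17 between libraries A and -0.15 between the means of B and C. Stat3 shares 72 exon bases with Stat5a on the other strand, and whether reads were counted by strand is not given in the sources used here. The reads count transcripts and say nothing of how much STAT3 protein was phosphorylated.

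The feedback inhibitor Socs3 had the tightest libraries of the 10 genes. It was at 3123, 3073 and 3360 normalised reads in ICRF-193, against 4991, 6020 and 5545 in DMSO. Even the lowest DMSO library lay above each ICRF-193 library. Means were 3185 ± 153 in ICRF-193 and 5518 ± 515 in DMSO (SD, n = 3 each), a coefficient of variation of 4.81% and 9.33%. Library A did not stand high here, at 0.971 of the mean of B and C in ICRF-193 and 0.863 in DMSO. The authors' deposited table gives Socs3 a log2 fold change of -0.79 (adjusted p = 0.0214), and the log2 ratio was -0.68 between libraries A and -0.85 between the means of B and C. The limma-voom value was -0.79 ± 0.10 (SE, adjusted p = 0.00712), and the call held when any single library was left out (limma-voom, adjusted p from 0.00583 to 0.0471).

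Socs1, a related inhibitor that binds Janus kinases directly and is known from interferon signalling, had the fewest reads of the 10. It was at 119, 132 and 150 normalised reads in ICRF-193, against 131, 198 and 218 in DMSO. Libraries A were the lowest of both groups, and DMSO-A fell inside the range of ICRF-193. Its log2 fold change was -0.45 in the authors' deposited table (adjusted p = 0.534), -0.13 between libraries A and -0.56 between the means of B and C. Without DMSO-A, limma-voom called Socs1 lower (-0.64, adjusted p = 0.0488). The split term gave -0.43 ± 0.14 in limma-voom (SE, adjusted p = 0.0214), a call that ended with total read scaling (-0.30, adjusted p = 0.0957).

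Ptpn11, the gene of the phosphatase SHP2, was at 7861, 5482 and 5286 normalised reads in ICRF-193, against 7699, 5045 and 4892 in DMSO. The groups overlapped over most of their range. The authors' deposited table gives a log2 fold change of 0.08 (adjusted p = 1), and limma-voom with the split term 0.08 ± 0.05 (SE, adjusted p = 0.149). With total read scaling as well, limma-voom called Ptpn11 higher (0.22, adjusted p = 0.00243). The log2 ratio was 0.03 between libraries A and 0.12 between the means of B and C.

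Per length of exon, Socs3 remained the most abundant of the 10 transcripts after treatment although it fell. Levels here are normalised reads per kilobase of exon, with the exon length from the GENCODE M21 annotation. Socs3 was at 1248 ± 60.0 in ICRF-193 and 2162 ± 202 in DMSO (SD, n = 3 each). In ICRF-193 its range overlapped that of the next gene, Ptpn11, at 1107 ± 255, whereas in DMSO the ranges of Socs3 and Ptpn11, with Ptpn11 at 1048 ± 281, did not meet (SD, n = 3). Stat3 and Jak1 followed in both groups and overlapped each other, at 714 ± 145 and 679 ± 248 in ICRF-193 and 796 ± 168 and 656 ± 231 in DMSO (SD, n = 3 each).

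Then came genes in an order that differed between the groups. In ICRF-193 it ran Tyk2 (360 ± 41.2), Jak2 (289 ± 166), Il6st (261 ± 92.9), Lif (203 ± 49.0) and Lifr (179 ± 16.6), and each range overlapped the next (SD, n = 3). In DMSO it ran Il6st (355 ± 125), Lifr (308 ± 57.1), Tyk2 (285 ± 42.8), Jak2 (183 ± 102) and Lif (87.0 ± 32.8), again with each range meeting the next (SD, n = 3). Per kilobase, the ligand transcript thus averaged above that of its receptor in ICRF-193, with overlapping ranges, and below it in DMSO, where the ranges of Lif and Lifr did not meet. This order depends on the lengths used, 4.051 kb for Lif and 10.383 kb for Lifr, which join all annotated exons of a gene. The annotation on which the reads were counted is not given in the sources used here. Socs1 had the lowest mean in both groups, at 46.0 ± 5.36 in ICRF-193 and 62.7 ± 15.8 in DMSO (SD, n = 3 each), where its range met that of Lif.

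**Figure D3:**
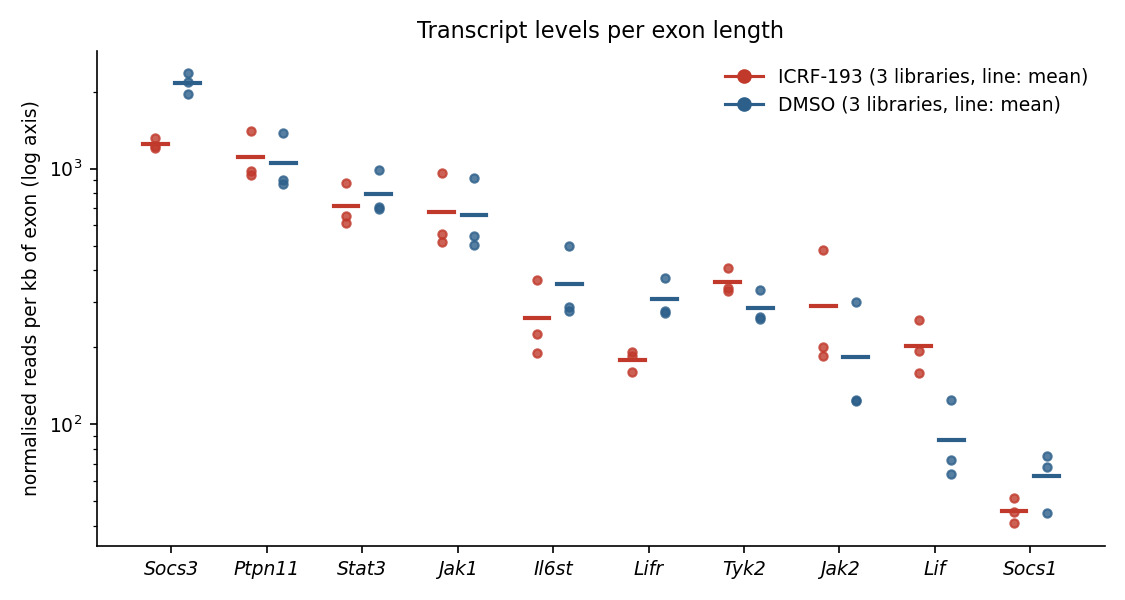
Normalised reads per kilobase of exon (y axis, log scale) of the 10 genes in the 3 ICRF-193 libraries (red, left of each pair) and the 3 DMSO libraries (blue), with lines at the means, ordered by the DMSO mean. Lif lies at 203 in ICRF-193 and 87.0 in DMSO, while Lifr lies at 179 in ICRF-193 and 308 in DMSO.

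The wider pathway was followed in 5 lists of 63 further genes, none of which passed the deposited DESeq test. Of the 62 with reads, 8 were higher and 6 lower in it before adjustment (p under 0.05), as were 11.5% and 5.38% of all genes with reads. Of 59 tested on the recovered reads, limma-voom called 2 higher, Il11 and Jak3, and 5 lower, among them Pias4, Pim3, Bcl3 and Mapk3, against 9.77% and 5.95% of all genes. With total read scaling it called 7 higher and 0 lower, so that the 5 lower calls ended, where 12.6% of all genes were higher and 2.66% lower, 15.3% in all. The fit with the split term called 20 higher and 15 lower, against 27.1% and 32.6% of all genes, or 28 higher and 10 lower with total read scaling, against 36.4% and 19.5%. The values that follow are from the authors' deposited table, beside a median log2 fold change of 0.01 over all genes with reads.

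Other ligands and receptors of the IL-6 family had a median log2 fold change of 0.42 over 14 genes with reads, 11 of them above 0. None passed the deposited test. At an unadjusted p under 0.05, 4 were higher, as were 11.5% of all genes with reads. Among the 4 were Il6ra, Il11 and Ctf2. Ctf2 had few reads, with means of 14.4 normalised reads in ICRF-193 and 4.9 in DMSO, and its groups overlapped. Il6, Cntf and Osm, which also enter the median, had few reads as well. Il6ra, the receptor for IL-6, was at 243, 103 and 111 normalised reads in ICRF-193, against 77.2, 34.7 and 45.4 in DMSO, 2.90-fold with an adjusted p of 0.221 in the authors' deposited table. Its groups did not overlap, and libraries A were again the highest. Limma-voom with the split term called 7 higher and 0 lower of the 12 tested, where it called 27.1% of all genes higher and 32.6% lower.

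Genes of the other JAK and STAT proteins had a median of 0.23 over 7, with 0 called. The largest difference upwards among those with a mean of at least 100 normalised reads was in Stat5a, a factor of prolactin and cytokine signalling, at 194, 132 and 114 normalised reads in ICRF-193, against 110, 60.5 and 53.0 in DMSO. The groups did not overlap, and the authors' deposited table gives 1.97-fold (adjusted p = 0.168). Stat6, the factor of IL-4 signalling, lay lowest of the list at a log2 fold change of -0.08 (adjusted p = 0.977 in the authors' deposited DESeq test). Jak3, a kinase of lymphocyte cytokine receptors, was 1.51-fold in the deposited table of the authors (adjusted p = 0.152), and limma-voom without the split term called it higher (0.59 ± 0.11 SE, adjusted p = 0.0164). The split term gave 3 higher and 0 lower of these 7 genes in limma-voom, where 27.1% of all genes were higher and 32.6% lower.

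Other negative regulators had a median of -0.11 over 13 genes, 0 called. Cish, a SOCS family gene induced by STAT5, was at 434 ± 68.0 normalised reads in ICRF-193 and 279 ± 52.8 in DMSO (SD, n = 3 each), with groups that did not overlap. Socs2, which acts on growth hormone signalling, was at 2340 ± 409 in ICRF-193 and 3450 ± 686 in DMSO (SD, n = 3 each), with groups that overlapped. Their adjusted p values in the authors' deposited DESeq test were 0.135 and 0.195. The split term gave 4 higher and 4 lower of the 13 in limma-voom, where 27.1% of all genes were higher and 32.6% lower.

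Known STAT3 targets of ES cells had a median of -0.28, with 9 of 12 genes below 0 and 0 called. At an unadjusted p under 0.05, 3 were lower and 0 higher in the authors' deposited table, where 5.38% of all genes with reads were lower and 11.5% higher. These 3 were Pim3, a survival kinase, at 0.625 of DMSO (adjusted p = 0.0733), the pluripotency factor gene Sall4 at 0.695 and Bcl3 at 0.719. Klf4, a pluripotency factor induced through STAT3, was at 3292, 1407 and 1329 normalised reads in ICRF-193, against 6972, 3162 and 2285 in DMSO. It was at 0.485 of its DMSO level in the authors' deposited table without passing (adjusted p = 0.534), and ICRF-193-A lay within the DMSO range. With the split term limma-voom called Klf4 lower at -1.02 ± 0.10 (SE, adjusted p = 1.14e-05). Fos, an immediate early gene that STAT3 and ERK signals both reach, had the largest difference upwards of that list. It was at 1293, 539 and 513 normalised reads in ICRF-193, against 632, 171 and 163 in DMSO, and DMSO-A lay above ICRF-193-B and ICRF-193-C. Of 11 tested, limma-voom with the split term called 1 higher and 6 lower, where it called 27.1% of all genes higher and 32.6% lower. With total read scaling as well, this list came to 3 higher and 4 lower, where 36.4% of all genes were higher and 19.5% lower.

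**Figure D4:**
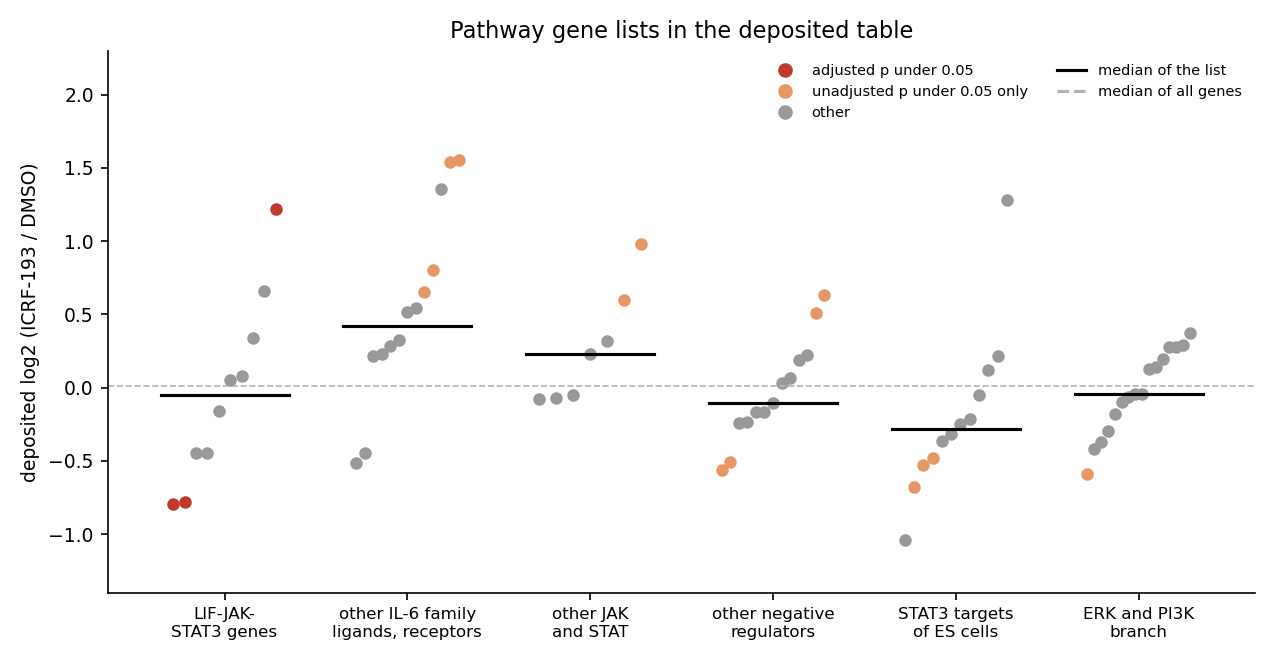
Deposited log2 ratio of ICRF-193 to DMSO (y axis) of each gene in the LIF and JAK-STAT3 set and in 5 pathway lists; bars are list medians and the dashed line is the median of all genes with reads, 0.01. Il6, listed at 0 in ICRF-193, has no finite log2 ratio and is not drawn, nor is Il27, which had no reads. Red points, at an adjusted p under 0.05, occur in the first column, and the list medians run from 0.42 for the IL-6 family to -0.28 for STAT3 targets.

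The ERK and PI3K branch of LIF signalling had a median of -0.04 over 16 genes, 0 called. Mapk3, the gene of the kinase ERK1, was at 2923, 3315 and 3482 normalised reads in ICRF-193, against 4160, 5350 and 5090 in DMSO. The groups did not overlap, at 0.666 of the DMSO level and an adjusted p of 0.153 in the authors' deposited DESeq test; limma-voom on the recovered reads called it lower (adjusted p = 0.0321), but not with total read scaling (adjusted p = 0.0977). The split term gave 5 higher and 5 lower of the 16 in limma-voom, where 27.1% of all genes were higher and 32.6% lower. Pik3r1, a regulatory subunit of PI3K, had the largest difference upwards in the branch, 1.29-fold in the authors' deposited table (adjusted p = 0.54).

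The pattern over the 6 libraries of each gene that passed was also compared with that of every other gene with a mean of at least 100 normalised reads, as the mean absolute difference of log2 normalised reads after each gene was centred on its own mean. Closest to Lif were Map3k13, Scube1 and Acot11, at 0.0659, 0.0721 and 0.0742 on the log2 scale. Among the closest to Lifr were Zfp827 and Poc1b, at 0.0257 and 0.0572. Closest to Socs3 were Wdr31, Cbx1 and Mex3d, at 0.0339, 0.0376 and 0.0385. The likeness covers the difference between the groups and that between libraries A and the rest together.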

How the data were processed

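One deposited file was used, the authors' table of their comparison, made with TopHat, HTSeq and DESeq on mouse build mm9 per the submitters' processing notes; versions, annotation, settings and strand are not given in the sources used here. The unit of its deposited group columns is a signal: reads of a gene scaled by library size factors and averaged over the group. The deposited fold change is the ratio of the ICRF-193 mean to the DMSO mean, and the deposited log2 fold change is the log2 of it. The p-values were deposited by the authors from their test, before and after Benjamini-Hochberg adjustment over 18759 genes with reads; this test is the main result, since the file holds no column per replicate.

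Whole reads per library were worked back from the 15 printed digits: all combinations of 3 whole numbers of the libraries' steps that give the printed mean were searched. In both groups 18151 genes (96.8%) had a single combination, all 10 genes described among them; 548 were taken at a posterior of at least 0.99 and 60 of high level were left out. The posterior used the spread between libraries and how alike libraries A stood to the others in the 2 groups. Size factors recomputed from the reads differed by at most 0.0119%. The recovery and the fits were also run on simulated data, with outcomes that are not given here. Those data took the steps as known, the same spread for all genes and a difference of libraries A alike in both groups.

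The fits took the recovered reads of 14967 genes that reached 10 reads in 3 or more libraries and were made with limma-voom (limma 3.58.1, R 4.3.3), with the recovered size factors and Benjamini-Hochberg adjustment over all of them, with and without a term for libraries A. Values ± SD are over 3 libraries. The alternatives were other scalings, no filter, other thresholds and pseudocounts, and leaving out libraries. The ratios within libraries A and within B and C, and the split term with total read scaling, were chosen after seeing the data. The main tests were planned without covariates. The split term, and leaving out both libraries A, could be set only once the reads of each library had been recovered. The 60 genes left out enter the depth with their likeliest reads. Exon lengths, overlaps and promoters come from GRCm38 tables, whose build differs from that of the file, so no coordinate was joined to it.

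The genes, the lists and the tests were chosen with earlier results of these data known. Named from the lists were genes that passed (none did) and, among those with a mean of at least 100 normalised reads, the largest rise and the largest fall. Il11, Ctf2, Jak3, Pias4, Pim3, Sall4 and Bcl3 were named after their values were seen. Tfcp2l1, Hras and Tfap2c were matched through older symbols. Some single genes that these rules pick are not reported here.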

Additional observations from a re-analysis of the deposited data

How the results depend on the processing

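The deposited test called 1 of the 10 genes higher and 2 lower, 0 and 0 further pathway genes, and 1120 and 237 of all genes. At a threshold of 0.1 the pathway genes came to 1 higher and 1 lower and all genes lower to 373. At 0.01 the 10 genes came to 0 and 0, and all genes to 745 higher and 109 lower. On recovered reads limma-voom gave 2 higher and 5 lower pathway genes and 891 genes lower in all. With the split term these were 3 and 5 of the 10 genes, 20 and 15 pathway genes, and 4054 and 4882 of all. Without both libraries A they were 3 and 4, 19 and 15, and 3759 and 4310. Total read scaling gave 7 and 0 pathway genes and 1891 and 398 of all, upper quartile scaling 3 and 2 pathway genes and 589 lower in all, and no filter 2 and 5 pathway genes and 759 lower in all. The split term with total read scaling, chosen after seeing the data, gave 5 higher of the 10 genes, 28 and 10 pathway genes, and 5450 and 2917 of all. The cause of these differences was not tested.

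Leaving out a library in turn, limma-voom called 0 to 1 of the 10 genes higher and 1 to 3 lower, 0 to 7 pathway genes higher and 0 to 9 lower, and 476 to 1721 of all genes higher and 110 to 1389 lower. The highest of these came without DMSO library A. A group with a library left out held 2 libraries.

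The log2 fold change of Lif ranged from 1.04 to 1.55 over 18 alternatives, that of Lifr from -1.01 to -0.62 and that of Socs3 from -0.86 to -0.65. None of the 18 turned their direction, nor that of Il6st, Jak2, Tyk2 or Socs1. Those that add a pseudocount to both means could not turn it, and all 18 rest on the same libraries. Leaving out a library, Jak1 ranged from -0.25 to 0.32, Ptpn11 from -0.10 to 0.30, Stat3 from -0.32 to 0.013 and Stat6 from -0.24 to 0.053. The sign turned without ICRF-193 library A, DMSO library B or DMSO library C for Jak1 and Ptpn11, without DMSO library A for Stat3, and without ICRF-193 library C or DMSO library A for Stat6. Stat6 also turned to 0.050 with total read scaling and to 0.057 with the split term added to it.

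No paired analysis was possible because the deposited table has no column per replicate and the recovered libraries carry no replicate number. With 3 libraries a group, a gene that did not pass is not shown to be unchanged. Of the 10 genes the lowest read number in any library was 119. Levels of protein and of phosphorylated STAT3 were not analysed here, and 60 genes of high level have no value per library.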
